A study of Danio rerio with 6 samples.

Results

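The vehicle baseline described here is a set of 3 RNA-seq libraries from the distal part of regenerating zebrafish (Danio rerio) caudal fins. The 3 vehicle libraries, replicates 2, 3 and 4, were chosen by their column names in the count table and are 3 of the 6 libraries of the series. Fish of the shha:GFP line, in which green fluorescent protein reports the ligand gene shha, had their tail fins amputated and were injected into the body cavity 4 days later. The vehicle was buffer alone (50% PEG-400, 5% propylene glycol and 0.5% Tween-80), and tissue was taken 5 hours after the injection. The other 3 libraries came from fish given 40 mg/kg of the Smoothened inhibitor BMS-833923 in this buffer and are not described here. Tissue was kept from the shha:GFP domains to the fin tip, so proximal regenerate and stump are missing by design. Each library is a pool of 4 regenerates, and the labels name pools rather than fish. All 3 libraries carry the transgene, were amputated and were injected, so no uninjured or uninjected fin is among them. There is a single group and no contrast, so no test was made and no p-value is given.

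An amputated zebrafish fin is first covered by wound epidermis, beneath which a blastema of proliferating mesenchymal cells forms. Signals of the Fgf, Wnt, Bmp, Hedgehog and retinoic acid families pass between the epidermis and the blastema. Osteoblasts then rebuild the bony rays, and fin fibroblasts and basal epidermis lay down actinotrichia, the stiff fibrils that support the fin edge. The caudal fin also holds blood vessels, nerves, pigment cells and resident immune cells, but no cartilage or muscle in its rays.

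Levels are given as CPM, a gene's count per 1000000 counts of its library, and where 3 values are listed they belong to replicates 2, 3 and 4 in that order. CPM is a share of reads that is not divided by transcript length, so a larger CPM of 1 gene than of another means more reads and not more transcripts. Because whole tissue was sequenced, fewer cells of a type and less RNA per cell cannot be told apart. Total counts were 21491345, 22338924 and 22594355. A count of 0 allows a level of up to 0.140, 0.134 and 0.133 CPM (3 counts), a limit that covers counting error only. A name was called detected at 1 CPM or more in every library, which held for 15626 of 28531 names (54.8%), while 3862 names (13.5%) had no count in any library. Every count of detected members below is to be read against the 54.8% of all names. Lists were chosen with earlier results of these data known, and some family patterns were refined after values were seen. A contrast of a list or family with all names may therefore partly come from that choice. Replicates 2 and 4 agreed least. Across 10103 names with a mean of 10 CPM or more, Pearson's r of log2(CPM + 1) was 0.97 between replicates 2 and 3, 0.93 between replicates 2 and 4, and 0.94 between replicates 3 and 4. These coefficients are across genes, which are not independent replicates. With replicate 2, 3 or 4 left out in turn, 16132, 15728 and 15815 names were detected. Leaving out any library can only keep or raise this count. Statements on which pool was highest or lowest use column totals. TMM scaling, which sets libraries level on the bulk of genes, moved the pools against each other by up to 1.18 times, so smaller differences can change their order.

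Reads were spread unevenly over genes. The 10 names with the most reads took 15.2%, 13.1% and 13.6% of the counts, and the 50 leading names took 26% ± 1.74 (SD, n = 3 pools). That share was 26.4% without replicate 4, and 21.9% when the rRNA row and the numbered mitochondrial rows were left out. Between 393 and 534 names were needed for 50% of a library's reads, and between 5590 and 6168 names for 90%. The 4 names above a mean of 10000 CPM held 9.06% of reads on average, and the 95 names between 1000 and 10000 CPM held 22.9%. The 1493 names between 100 and 1000 CPM held the largest share, 35.7%, and the 8511 names between 10 and 100 CPM held 29.1%. By RefSeq biotype, protein-coding names took 84.8%, 86.0% and 84.2% of the reads.

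The row with the most reads, zgc:158463, carries an rRNA biotype in RefSeq and had 33404, 23482 and 26719 CPM. A numbered row of the mitochondrial genome came next, at 25108, 23838 and 34414 CPM. The first was lowest in replicate 3 and the second highest in replicate 4. The leading protein-coding gene was krt5, a keratin of epithelial intermediate filaments, with 19600.0, 19146 and 16046 CPM. It was followed by col1a1a, which encodes an alpha chain of type I collagen, the main fibre of bone, at 23888, 18094 and 8130.2 CPM. The keratin gene differed little between pools, whereas the collagen gene had its lowest value in replicate 4, 2.94 times under its highest.

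Below these came more genes of epidermis and matrix. krt91 and krt94, further keratin genes, had 8121, 7245 and 10100.0 CPM and 4935, 4856 and 7454 CPM. apoeb, which encodes the lipid carrier apolipoprotein E, had 7236, 5906 and 10163 CPM. Replicate 4 was highest for these 3 genes. fn1b, a fibronectin gene active in wound matrix, had 6554, 8329 and 4543 CPM. Genes of other matrix proteins were postnb (periostin) at 4794, 5172 and 5639.8 CPM and sparc (osteonectin, a collagen-binding glycoprotein) at 4949, 4402 and 6006 CPM. The last of these was highest in replicate 4, unlike fn1b, which was lowest there.

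Genes used by all cells filled much of the rest of the top 30. eef1a1l1, a translation elongation factor gene, had 7373, 6233 and 5111 CPM and eef2b, another, had 4389, 3772 and 2782 CPM. hspa8, which encodes a chaperone made without stress, had 5025, 4441 and 5672 CPM, and hsp90ab1, another chaperone gene, had 3596, 3178 and 2459 CPM. The actin genes actb2 and actb1 had 5372, 4487 and 3091 CPM and 3873, 3337 and 2770.1 CPM. ahnak, which encodes a very large scaffold protein, had 3500.2, 4731 and 4789 CPM. The 4 translation and actin genes were each highest in replicate 2 and lowest in replicate 4, while ahnak had its lowest value in replicate 2. Just outside the first 30 names stood si:dkey-22i16.3, whose RefSeq symbol is enam (enamelin, an enamel matrix gene in mammals), at 2296, 2086 and 2643 CPM. Among the first 30 names, 3 have only clone-based names with no RefSeq match and are not described.

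**Figure D1:**
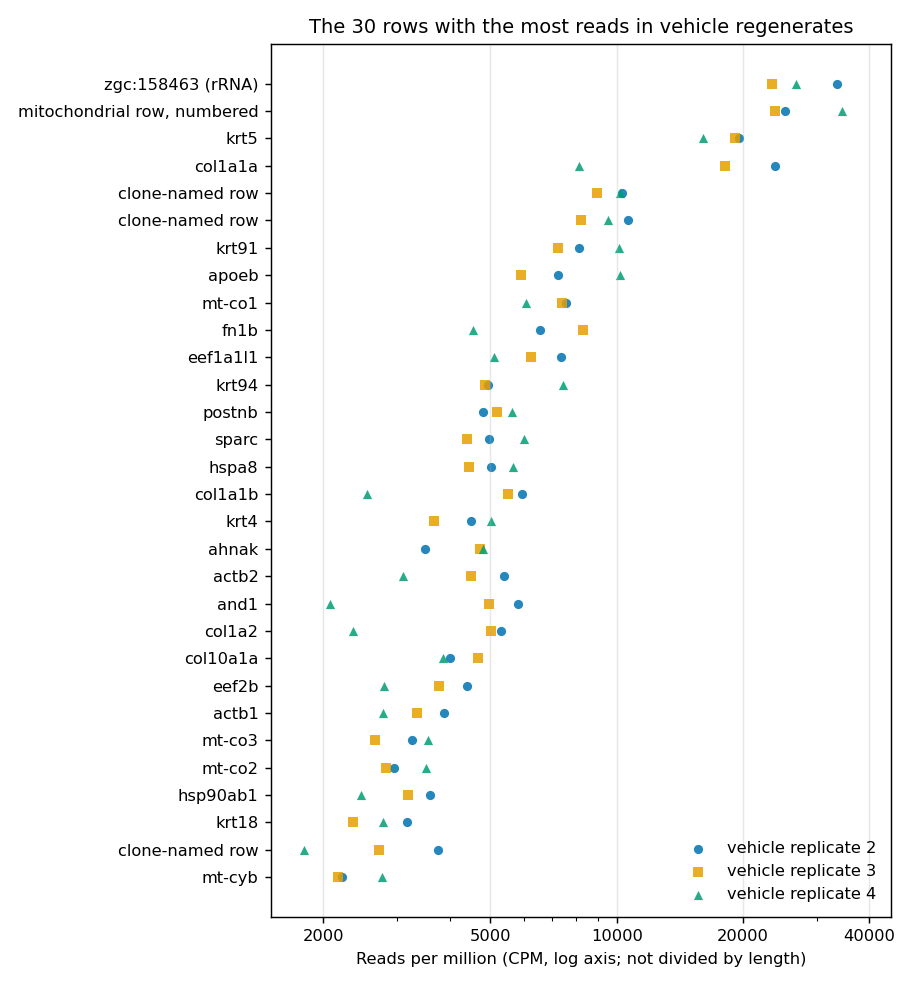
CPM (log axis, not divided by transcript length) of the 30 rows with the most reads, with 1 marker for each vehicle library. An rRNA row and a numbered mitochondrial row lead. Keratin, type I collagen, clone-named, apoeb, mt-co1 and fibronectin rows fill the rest of the upper part. For col1a1a, col1a1b, col1a2 and and1 the replicate 4 marker lies well to the left of the other 2.

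Epidermal genes were read in all pools. Of 19 keratin genes, 13 were detected, against 54.8% of all names, and they summed to 48243, 44332 and 50348 CPM. Keratin copies are alike in sequence, so reads may have been split between them and single values are uncertain. On the list for the superficial epidermis, 16 of 20 members were detected, and krt5 was the largest part of its sum of 33529, 33134 and 35340 CPM. Its other leading members were krt4, a keratin gene of the outer layer, at 4495, 3661 and 5013 CPM, dspa (desmoplakin, which anchors filaments at desmosomes) at 1685, 2237 and 2411 CPM and perp, a desmosome membrane gene, at 1494, 1782 and 2682 CPM. epcam, an epithelial adhesion gene, had 1051, 949 and 1459 CPM. Replicate 4 was highest for these 4 genes, apart from krt4 under TMM scaling, and for 12 of the 16 members above 10 CPM on this list (11 under TMM). Only evpla, an envoplakin gene, differed between pools by 2 times or more among the 16, at 389, 661 and 1036 CPM. The 4 members not detected were the keratin-like genes cyt1, cyt1l, krt92 and krt1-c5. cyt1 was at 0.931, 0.985 and 1.90 CPM. Which cells the reads of this list came from was not tested.

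All 16 matched markers of the basal epidermis were detected. Of the 15 with a mean of 10 CPM or more, 11 were lowest in replicate 4 under each of 4 scalings tried, against 35.2% of all such names with totals and 42.3% under TMM. With totals, 5 of the 15 differed between pools by 2 times or more, against 9.76% of all such names, and 7 did under TMM. col7a1, the collagen of anchoring fibrils, had 1691, 1525 and 787 CPM, and col17a1b, a collagen of hemidesmosomes, had 1335, 1539 and 877 CPM. krt15 had 1035, 1011 and 1105 CPM, and cdh1 (E-cadherin) had 869, 1018 and 1169.5 CPM. tp63, the transcription factor that marks basal keratinocytes, had 271, 268 and 199 CPM. Among these 5 genes, the anchoring collagens and tp63 were lowest in replicate 4, whereas cdh1 was highest there and krt15 hardly differed. The basement membrane genes fras1 and frem2a, whose loss blisters the fin fold, had 507, 683 and 288 CPM and 389, 611 and 254 CPM. itgb4, a hemidesmosome integrin gene, had 267, 358 and 166 CPM and itga6b, its partner, had 247, 278 and 357 CPM. The 2 partners ran in opposite directions, with itgb4 lowest and itga6b highest in replicate 4. lama5, a laminin chain of the same membrane, was at 682, 642 and 341 CPM.

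Junction and barrier families differed in how many members were detected. Of 31 claudin genes, which seal tight junctions, 17 were detected (54.8%, the share of all names), led by cldnb at 665, 676 and 649 CPM and cldni at 542, 555 and 844 CPM. cldna had 355, 379 and 645 CPM and cldn7b had 273, 347 and 454 CPM. Annexin genes, which encode calcium-dependent membrane binders, were detected for 13 of 15 members and summed to 4719, 4164 and 5826 CPM. Its leading genes were anxa1a at 1499.6, 1132 and 1641 CPM and anxa2a at 1354, 1167 and 1496 CPM. s100a10b, the partner of annexin A2, led the 12 S100 genes, 9 of which were detected, with 1373, 1210.5 and 1938 CPM. Of 25 cadherin genes, 14 were detected (56%, near the share of all names), cdh1 first, then cdh29 at 215, 144 and 316 CPM and cdh26.1 at 114, 199 and 136 CPM. All 4 Grhl genes, regulators of epithelial barrier genes, were detected, led by grhl1 at 125, 269 and 231 CPM and grhl3 at 154, 107 and 133 CPM. Of 32 connexin genes, only 9 were detected, a share of members below that of all names. They were led by cx43.4 at 159.6, 152 and 111 CPM and cx43, whose mutants have short fin ray segments, at 99.4, 127 and 103 CPM.

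Lists of specialised epithelial cells summed to fewer reads than the epidermal lists. Of 15 matched genes of mucous cells and ionocytes, 7 were detected (46.7%, near the 54.8% of all names), with a sum of 764, 937 and 901 CPM. ca2, a carbonic anhydrase gene, had 169, 394 and 436 CPM, and atp1a1a.1, a sodium pump gene, had 394, 348 and 211 CPM. These move in opposite directions between replicates 2 and 4. agr1, a secretory gene, had 87.5, 73.9 and 123 CPM, while the mucin gene muc5.2 had 0.931, 2.51 and 4.34 CPM and the ionocyte regulators foxi3a and foxi3b stayed at or under 0.326 CPM. For the sense organs called neuromasts, 6 of 17 genes were detected (35.3%), but cldnb, shared with other epithelia, held most of the summed reads. Hair cell genes were few, with loxhd1b at 22.0, 11.1 and 4.69 CPM, myo6b at 7.12, 8.06 and 5.18 CPM and otofa at 5.16, 1.39 and 1.11 CPM, and slc17a8 and pvalb9 at or near 0. The first and the last of the 3 were highest in replicate 2 and lowest in replicate 4.

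Genes on the osteoblast list were among those with the most reads. Of 23 osteoblast genes, 22 were detected, and they summed to 45322, 39129 and 24308 CPM, with the total lowest in replicate 4 under each of 4 scalings tried. Most of that sum was type I collagen, whose other chains col1a1b and col1a2 had 5936, 5516 and 2539 CPM and 5287, 5024 and 2355 CPM. Which cells these reads came from was not tested, so the sum and its order between pools cannot be read as osteoblasts alone. col10a1a, a collagen of fish osteoblasts and of hypertrophic cartilage in mammals, had 3999, 4683 and 3865 CPM, and its relative col10a1b had 541, 560.1 and 549 CPM. The type I chains col1a1b and col1a2 were 2.34 and 2.25 times lower in replicate 4 than in their highest library, whereas both col10a1 genes varied by 1.21 and 1.04 times.

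Regulators and enzymes of the lineage took fewer reads than the collagens. sp7 (osterix, the regulator of committed osteoblasts) had 40.6, 59.7 and 44.2 CPM, and runx2b, which acts before it, had 9.49, 21.1 and 11.6 CPM. dlx3b had 202, 264 and 265 CPM and dlx5a had 96.7, 98.1 and 163 CPM. ifitm5, an osteoblast membrane gene, was at 79.0, 75.1 and 90.7 CPM, and panx3 (pannexin) was at 65.2, 70.4 and 60.3 CPM. Genes of mineralisation were entpd5a at 55.3, 74.6 and 50 CPM, alpl (alkaline phosphatase) at 38.8, 64.4 and 51.2 CPM and phex at 39.9, 35.9 and 36.0 CPM. The late marker spp1 (osteopontin) had 37.4, 25.3 and 28.1 CPM. bglap (osteocalcin), the marker of mature osteoblasts, was the only member not detected, at 0, 0.0895 and 0.0885 CPM, which lies under the limit for a count of 0. Osteoclast genes were detected for 7 of 8 members, with ctsk (cathepsin K) at 628, 476 and 569.8 CPM, tcirg1b at 54.5, 65.6 and 54.4 CPM and acp5a at 13.7, 12 and 14.3 CPM. calcr (the calcitonin receptor) was the exception, at or under 0.269 CPM. Of the osteoclast genes detected, mmp9 and csf1ra also stand on lists of other cell types used here.

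Several actinotrichia genes differed between pools by more than 2 times. and1 and and2 encode actinodins, the non-collagen proteins of actinotrichia, and had 5816, 4965 and 2077 CPM and 2701, 1867 and 891 CPM. and3 had 10.2, 3.18 and 1.99 CPM. Each of the 3 genes was highest in replicate 2 and lowest in replicate 4. The actinotrichia collagen gene col2a1b had 630.2, 527 and 267 CPM, with the same order of pools. col2a1a, the copy used in cartilage, was at 0, 0.179 and 0.0443 CPM, near or under the limit for a count of 0. Of 17 cartilage genes, 9 were detected (52.9%, near the 54.8% of all names). Which cells the reads of the detected genes came from was not tested. Among the detected genes, col11a1a had 825, 742 and 359 CPM and col11a2 had 292, 332 and 164 CPM. hapln1a had 165, 200.2 and 174 CPM and sox9b had 169.5, 184 and 120.1 CPM. The defining cartilage genes acana (aggrecan) and matn1 were at 0.372, 0.627 and 0.531 CPM and 0.605, 0.224 and 0.354 CPM.

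Of 54 collagen genes, 41 were detected and 37 had a mean of 10 CPM or more. Fibroblast collagens outside type I were col5a2a at 1668, 1843 and 1342 CPM, col5a1 at 1362, 1709 and 815 CPM, col12a1b at 1448, 1932 and 823 CPM and col12a1a at 1150.0, 1422 and 531 CPM. All 13 laminin genes had a mean of 1 CPM or more, and 12 were detected, led by lamb1a at 705, 666 and 322 CPM. lamc1 had 493, 599 and 277 CPM. Both families had their lowest summed CPM in replicate 4. The genes of matrix-cutting enzymes differed less between pools as a sum. mmp2, a gelatinase gene, had 1356, 1398 and 1657 CPM, and its activator gene mmp14b had 821, 957 and 688 CPM. mmp14a had 522, 523 and 292 CPM, and mmp11b had 157, 227 and 197 CPM. Of 23 matrix metalloproteinase genes, 15 were detected, and their sum was 3457, 3783 and 3367 CPM. Integrin genes, receptors for this matrix, were detected for 30 of 34 members, led by itgav at 389.6, 649 and 506 CPM, and their sum was highest in replicate 3 under each of the 4 scalings.

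Every matched blastema gene was detected, 28 of 28, against 54.8% of all names, on a list chosen with earlier results of these data known. Besides fn1b, the leading members were tnc (tenascin C, a matrix protein of regenerating tissue) at 1378, 1464 and 631 CPM, mdka (the growth factor midkine) at 948, 857 and 834 CPM and fn1a at 1009, 913 and 407 CPM. tnc and fn1a were lowest in replicate 4, and mdka hardly differed. The mesenchymal regulator genes prrx1a and prrx1b had 139, 113 and 116 CPM and 74.0, 77.5 and 61.2 CPM. The Twist genes twist2 and twist3 had 61.0, 76.6 and 59.4 CPM and 86.4, 69.1 and 32.8 CPM. pdgfra, a receptor gene of mesenchymal cells, had 132, 169 and 104 CPM. aldh1a2, which makes retinoic acid in the blastema, had 61.6, 48.2 and 37.8 CPM, and fgf20a, needed to start a blastema, had 22.8, 35.8 and 23.7 CPM. The list summed to 12056, 13893 and 8465 CPM, with fn1b as its largest part.

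Of 14 genes on the list for the distal wound epidermis, the signalling layer at the fin tip, 12 were detected. Which cells their reads came from was not tested, and mmp9 also stands on the osteoclast and ray joint lists. sp8a and sp9, transcription factor genes of limb and fin tip epithelium, had 152, 281 and 282 CPM and 118, 152 and 127 CPM. wnt5a and wnt5b had 191, 174 and 139.6 CPM and 131, 160.1 and 119 CPM. The protease genes mmp9 and mmp13a had 166, 150.1 and 117 CPM and 166, 123 and 135 CPM. lepb, a leptin gene switched on in zebrafish regeneration, had 67.0, 80.8 and 58.1 CPM. fgf24 had 27.8, 28.6 and 31.2 CPM. shha, which the transgene reports, had 9.40, 12.8 and 13 CPM. Of the 10 genes on this list with a mean of 10 CPM or more, none differed between pools by 2 times or more, a count that so few genes do not set apart from the 9.76% of all such names. Missing from the detected set were fgf8a, at 0.140, 0.179 and 0.310 CPM, and wnt3a, at 0.977, 2.3 and 0.708 CPM, the second of which passed 1 CPM in replicate 3 only. The ray joint gene evx1 had 3.58, 4.16 and 3.14 CPM, and pthlha, another joint gene, had 16.4, 19.5 and 14.9 CPM.

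Ligand families of the fin's signals were detected in part, at shares to be read against the 54.8% of all names. Fgf ligands were detected for 13 of 32 genes (40.6%) and all were under 40 CPM. After fgf24 and fgf20a they were led by fgf10a at 23.3, 17.6 and 19.4 CPM and fgf2 at 17.3, 16.9 and 10 CPM, and all 8 Fgf receptor genes were detected, led by fgfr3 at 77.3, 117 and 93.7 CPM and fgfr1a at 91.0, 114 and 76.8 CPM. Of 25 Wnt ligand genes, 13 were detected (52%). Behind the wnt5 pair came wnt3 at 13.9, 25 and 17.3 CPM and wnt11r at 15.5, 18.3 and 16.2 CPM, and 11 of 13 Frizzled receptor genes were detected, led by fzd10 at 100.04, 122 and 145 CPM and fzd2 at 111, 99.6 and 70.4 CPM. Among 25 Bmp and Gdf names, 14 were detected (56%). The first, bmp1a at 364, 333 and 154 CPM, encodes a procollagen-cutting protease and not a ligand, and was lowest in replicate 4. True ligands were gdf6a at 52.0, 63.3 and 61.4 CPM, bmp4 at 28.3, 34.7 and 20.6 CPM and bmp7b at 31.5, 25.7 and 17.3 CPM. Of 11 Tgf-beta and inhibin genes, 8 were detected (72.7%), led by tgfb1a at 179, 198 and 189 CPM and inhbb at 60.6, 70.6 and 99.2 CPM. inhbaa, the activin gene of the blastema, had 53.5, 51.4 and 29.1 CPM.

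Other signal families followed, also to be read against the 54.8% of all names. Of 13 Notch ligand and receptor genes, 10 were detected, with notch2 at 295, 393 and 214 CPM, notch3 at 226, 328 and 204 CPM and the ligand gene jag1b at 119, 141 and 84.8 CPM. These were highest in replicate 3. The delta ligands dla, dlb and dld, known from nerve development, were under 1 CPM in every library. For the insulin-like growth factors, igf2b had 48.6, 54.7 and 41.2 CPM, while igf1 was at 0.0931, 0.179 and 0.177 CPM. igfbp5b, a binding protein gene, had 175, 205 and 131 CPM, and 9 of 14 members of this family were detected. Of 13 Pdgf and Vegf ligand genes, 10 were detected, led by pdgfd at 88.5, 98.3 and 53.2 CPM and vegfaa, the main vessel growth factor gene, at 13.5, 22.9 and 29.0 CPM.

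Hedgehog pathway genes were detected for 21 of 25 members (84%, against 54.8% of all names). The receptor gene ptch1 had 30.2, 37.8 and 25.2 CPM, and smo, which encodes the target of BMS-833923, had 60.5, 80.6 and 68.9 CPM. The transcription factor genes gli2a and gli1 had 157, 174 and 103 CPM and 35.7, 43.4 and 30.7 CPM, and the co-receptor gene cdon had 93.8, 90.3 and 42.8 CPM. The second Sonic hedgehog gene, shhb, and the desert hedgehog gene dhh had no count in any library, and ihha, the Indian hedgehog gene of osteoblasts, had 3.77, 4.57 and 2.97 CPM. Replicate 3 had the highest and replicate 4 the lowest sum of this list, 739, 886 and 576 CPM. Retinoic acid genes were detected for 22 of 25 members (88%). crabp2a, a retinoic acid carrier gene, had 233, 344 and 477 CPM, rarga, a receptor gene, had 156, 190.2 and 139 CPM, and the degrading enzymes cyp26a1 and cyp26b1 had 171, 83.2 and 89.7 CPM and 115, 127 and 99.9 CPM. cyp26a1 was highest in replicate 2, and crabp2a in replicate 4.

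Hox genes, which carry position along the body axis and within appendages, split by paralog group. Of all 48 Hox genes, 29 were detected (60.4%), near the 54.8% of all names. All 23 genes of groups 9 to 13 were detected, and 6 of 25 genes of groups 1 to 8 were. The first block summed to 536, 589 and 701 CPM and the second to 50.1, 73.5 and 79.6 CPM. Group 13 alone, which patterns the distal ends of fins and limbs, had 380.2, 396 and 463 CPM. hoxa13b had 141, 142 and 175 CPM, hoxa13a 112, 109 and 119 CPM, hoxc13b 72.4, 81.3 and 72.8 CPM and hoxc13a 51.2, 61.3 and 91.6 CPM. hoxd13a, a partner of the hoxa13 genes in paired fin development, was at 1.49, 1.07 and 2.30 CPM, and hoxb13a, a marker of the tail end, was at 1.95, 1.84 and 1.86 CPM. By cluster letter, 11 of 11 hoxa, 3 of 15 hoxb, 10 of 15 hoxc and 5 of 7 hoxd genes were detected.

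The largest exceptions to the split lay in group 3. hoxa3a, an anterior gene of the head and trunk, had 33.1, 47.8 and 48.8 CPM, and hoxc3a had 8.0, 11.1 and 13.5 CPM. Next to these, the other genes of groups 1 to 8 stayed under 4 CPM in every library. Overlapping or antisense transcripts of the cluster could share reads with the hoxa3a row, which was not tested. Genes that mark the paired fins were at or near 0, with no count for tbx5a and tbx5b of the pectoral fin, 0.326, 0.313 and 0.133 CPM for tbx4 and 0.0465, 0.0448 and 0.0443 CPM for pitx1 of the pelvic fin. Detected genes on the fin position list were lhx2b at 13.1, 22.1 and 13.4 CPM, kcnk5b, a potassium channel gene that sets fin length, at 15.5, 9.27 and 9.47 CPM, lhx9 at 9.45, 11.5 and 10.2 CPM, alx4a at 7.82, 10.1 and 10.1 CPM and 2 others, so 6 of 18.

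**Figure D2:**
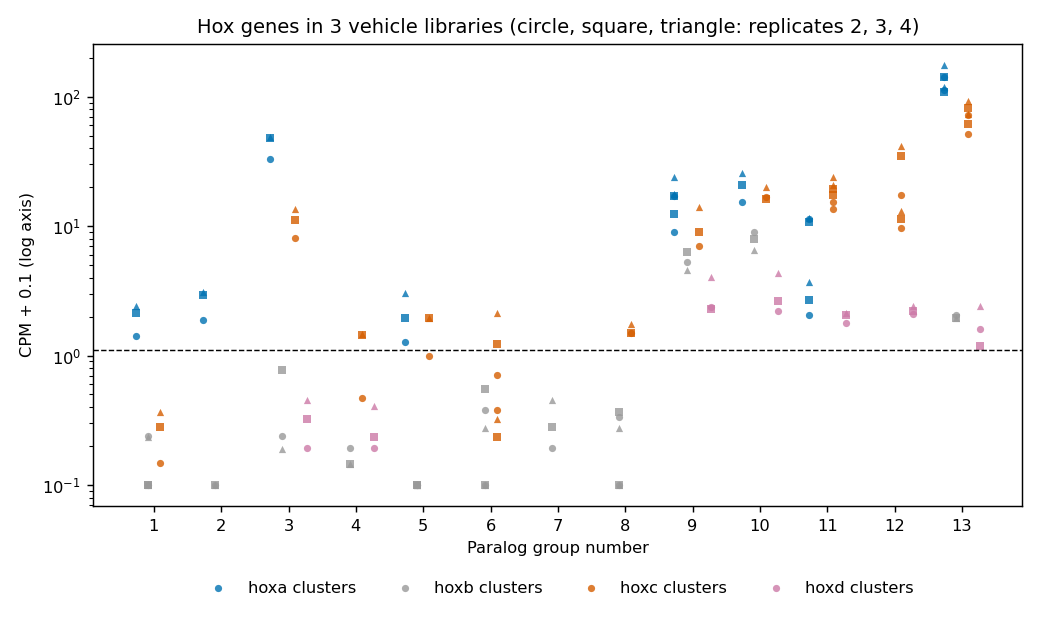
CPM plus 0.1 (log axis) of each Hox gene by paralog group number, coloured by cluster letter, with 1 marker shape per vehicle library; the dashed line is the detection level of 1 CPM. Groups 9 to 13 lie above the line in all 3 libraries, while 6 of 25 genes of groups 1 to 8 do, with hoxa3a and hoxc3a farthest above it.

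Homeobox and other regulator families differed in how many members were read. All 8 Dlx genes were detected, with dlx4a at 122, 85.1 and 141 CPM and dlx2a at 68.1, 98.9 and 91.5 CPM behind dlx3b and dlx5a. All 5 Msx genes were detected. msx2b had 134, 208 and 339 CPM, msx3 had 149, 193 and 199 CPM and msx1b had 121, 152 and 199 CPM. msx2a had 18.0, 38.2 and 90.1 CPM, 5.0 times higher in replicate 4 than in replicate 2. Every one of these Msx genes was lowest in replicate 2 and highest in replicate 4, while msx1a, at 4.65, 3.67 and 1.99 CPM, ran the other way. All 5 names matched by the Runx symbol pattern were detected, led by runx3 at 37.6, 63.4 and 47.2 CPM.

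By contrast, 2 of 15 Pax genes were detected, pax9 at 5.82, 5.33 and 6.28 CPM and pax1a at 2.09, 2.82 and 2.12 CPM. Nkx genes were detected for 3 of 17 members. Of 23 T-box genes, 7 were detected, led by tbx1 at 33.6, 51.7 and 48.2 CPM and tbx18 at 12, 16.2 and 10.7 CPM. Of 11 Irx genes, 2 were detected, irx3a at 22.6, 29.2 and 32.4 CPM and irx5a at 8.24, 12 and 7.70 CPM. Of 8 Gata genes, 3 were detected, led by gata3 at 6.05, 10.3 and 10.6 CPM, and gata4 and gata6, regulators of heart and gut, had no count. Each of these 5 families had a smaller share of members detected than all names (54.8%). Sox genes were detected for 18 of 26 members. sox4a had 135, 199 and 197 CPM, sox4b 72.9, 73.1 and 53.4 CPM and sox3, better known from nerve progenitors, 67.1, 55.6 and 74.4 CPM. Of 56 Fox genes, 24 were detected, led by foxp4 at 143, 183 and 118 CPM and foxq1a at 69.1, 209 and 151 CPM.

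Immune genes were led by those of macrophages. Of 20 macrophage genes, 19 were detected (95%, against 54.8% of all names). cd74a and cd74b, which encode the invariant chain of antigen presentation, had 678, 596 and 936 CPM and 463, 457 and 639 CPM. mpeg1.1, the standard zebrafish macrophage marker, had 69.1, 75.2 and 101 CPM, and marco, a scavenger receptor gene, had 49.1, 38.8 and 39.3 CPM. The list summed to 1712, 1605 and 2182 CPM and was highest in replicate 4 and lowest in replicate 3 under each of the 4 scalings. Most of that sum was cd74a and cd74b. Of 15 members with a mean of 10 CPM or more, 10 were highest in replicate 4 with totals. Under TMM, 6 were highest in replicate 4 and 8 in replicate 2. The receptor gene csf1rb was the member not detected, while its copy csf1ra had 38.1, 57.1 and 39.3 CPM. Neutrophil genes were detected for 8 of 11 members, but the reads lay in cebpb at 270.0, 354 and 124 CPM and nccrp1 at 62.4, 51.7 and 103 CPM, which other cells also use. The defining granule genes were low, with mpx at 1.95, 1.88 and 1.15 CPM and lyz at 0.186, 0.0448 and 0.0443 CPM. T cell genes were read at a few CPM, with cd4-1 at 8.7, 6.45 and 11.8 CPM, cd8a at 6.05, 7.48 and 9.25 CPM and lck at 3.44, 5.1 and 6.55 CPM. The 3 T cell genes were read in every pool. B cell genes were not detected, with cd79a at 0.279, 0.0448 and 0.398 CPM and no count for pax5. In all, 6 of 20 lymphocyte genes were detected.

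Vessel genes were detected for 19 of 24 members (79.2%, against 54.8% of all names) and summed to 241, 239 and 206 CPM. plvapb, a gene of fenestrated endothelium, had 52.2, 55.1 and 62.8 CPM, kdrl (a Vegf receptor gene) had 21.8, 19.8 and 14.5 CPM and fli1a had 23.5, 19.1 and 13.1 CPM. The lymphatic genes flt4 and prox1a had 13.3, 10.2 and 6.28 CPM and 5.44, 9.45 and 7.70 CPM, whereas lyve1b had a count in replicate 3 only. Of 10 mural cell genes, 8 were detected, led by notch3 and then pdgfrb at 55.1, 59.9 and 28.3 CPM and rgs5a at 18.7, 23 and 26.6 CPM. notch3, counted above among the Notch genes, held most of this list's sum of 359, 484 and 320 CPM. The smooth muscle actin gene acta2 was at 0.419, 0.448 and 0.354 CPM. Of the cell type lists, that of red blood cells had the widest range between pools. hbaa1 and hbba1, the adult alpha and beta globin genes, had 139, 74.7 and 10.7 CPM and 36.6, 56.3 and 7.66 CPM, and alas2, the haem synthesis gene of red cells, had 16.1, 9.53 and 1.11 CPM. Replicate 4 was lowest for each of the 3. The list summed to 225, 172 and 26.6 CPM, while the vessel list was 241, 239 and 206 CPM, so the share of red cell reads in replicate 4 was lower by more than that of vessel genes. Embryonic globin genes hbae3, hbbe1.1 and hbbe3 had no count. Globin copies are near-identical, so the split between them is uncertain. For thrombocytes, 5 of 7 genes were detected, of which fn1b is not specific, and itga2b, the defining gene, was at 2.47, 5.33 and 2.79 CPM.

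Nerve and pigment lists were detected in part, at shares to be read against the 54.8% of all names. Of 25 neuron genes, 5 were detected, led by tubb5 at 255, 243 and 138 CPM and map1b at 56.1, 54.4 and 44.4 CPM, both of which dividing or migrating cells also use. stmn2b had 6.33, 5.77 and 4.78 CPM and neflb, a neurofilament gene, 4.56, 3.49 and 2.35 CPM, while isl1, neurod1 and phox2bb had no count. Of 13 Schwann cell genes, 5 were detected. pmp22b had 125, 74.0 and 42.2 CPM, mbpb (myelin basic protein) 64.5, 66.7 and 88.4 CPM and erbb3b 26.1, 28.6 and 26.5 CPM. sox10 was at 1.16, 0.851 and 0.797 CPM, and plp1b had no count. The myelin and lineage genes of Schwann cells thus stood at unlike levels, and the neuron genes that were read most are the least specific. Melanophore genes were detected for 4 of 12 members, with tyrp1b at 16.6, 9.13 and 4.65 CPM and pmela at 12.4, 9.40 and 4.78 CPM. Both were lowest in replicate 4. Of 10 xanthophore genes, 6 were detected (60%, near the share of all names). bco1 had 39.8, 36.6 and 39.3 CPM and aox5 10.1, 10.3 and 9.43 CPM. Iridophore genes were detected for 7 of 12 members (58.3%, also near that share). They were led by paics at 81.9, 77.9 and 96.5 CPM and atic at 47.7, 38.8 and 56.4 CPM. Both are purine synthesis genes, which all dividing cells use. ltk, the receptor gene of the iridophore lineage, had 8.24, 11.7 and 8.10 CPM. pnp4a, the defining enzyme gene of iridophores, was at 0.419, 0.448 and 0.266 CPM.

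**Figure D3:**
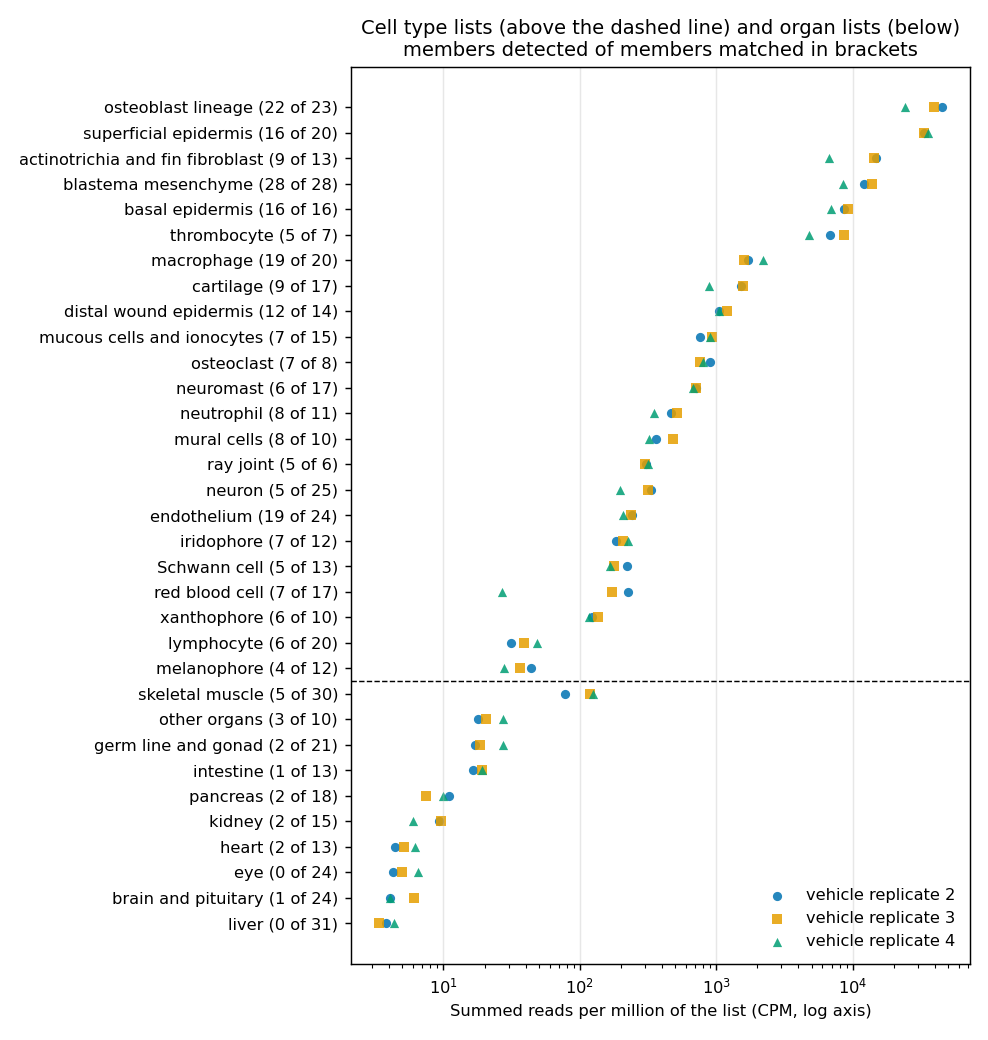
Summed CPM (log axis) of each cell type list and each organ list in the 3 vehicle libraries, with the number of members detected of those matched in brackets. Osteoblast, superficial and basal epidermis, actinotrichia and blastema lists lie at the top. The thrombocyte list comes next, and nearly all of its reads are fn1b, which is not specific to thrombocytes. Organ lists are placed below the dashed line whatever their level. That of skeletal muscle, at 77.8, 119 and 125 CPM, lies above the lymphocyte list (31.2, 39.1 and 48.6 CPM) and the melanophore list (43.7, 36.7 and 27.9 CPM). The replicate 4 marker of the red blood cell list lies at 26.6 CPM, far to the left of the other 2.

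Genes of organs outside the fin were nearly missing. Over 10 organ lists with 199 matched names, 18 names (9.05%) were detected, against 227 of 347 names (65.4%) on the 23 cell type lists and 54.8% of all names. The lists were chosen with earlier results of these data known, so this contrast may partly come from that choice. The lowest share detected among cell type lists was 20% (neuron). The highest among organ lists was 30% (swim bladder, thyroid, notochord and hatching gland), so single lists overlapped. The organ names summed to 166, 214 and 235 CPM, and 54 of them had no count in any library. None of 31 liver genes and none of 24 eye genes was detected. The largest liver value was vtg7, a yolk precursor gene, at 0.791, 0.671 and 0.841 CPM. ins (insulin) and fabp2 of the gut had no count. Of 55 crystallin genes of the lens, 1 was detected and 37 had no count, and of 26 opsin genes 1 was detected, opn8c, a non-visual opsin gene, at 4.42, 6.0 and 5.97 CPM.

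The 18 organ genes that were detected are not evenly spread. Of 30 skeletal muscle genes, 5 were detected. myog, the regulator of muscle differentiation, had 44.6, 66.3 and 67.4 CPM, and tnnt3b, a fast troponin gene, had 20.7, 42.1 and 43.5 CPM. The regulator myod1 was at 0.605, 0.627 and 0.443 CPM, and ckma (muscle creatine kinase) at 0.419, 0.537 and 0.0885 CPM. Thus 2 muscle genes passed 20 CPM in each pool, while the other members stayed under 6 CPM. vil1 (villin of the gut brush border) had 15.9, 18.5 and 18.7 CPM, sftpbb, a surfactant gene copy, had 14.7, 16.5 and 24.3 CPM and sycp1, a gene of meiotic chromosomes, had 9.26, 10.7 and 20.3 CPM. Other detected names were at a few CPM, such as cpb1 of the pancreas at 4.47, 3.45 and 3.01 CPM, tph2 of the brain at 2.05, 3.40 and 2.43 CPM and nkx2.5 of the heart at 1.44, 1.92 and 1.99 CPM. Each of these was read in all 3 pools.

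Genes of dividing cells were read in every pool. Of 33 proliferation genes, 32 were detected and 31 had a mean of 10 CPM or more. pcna, the replication clamp gene, had 246, 199.6 and 295 CPM, mki67 182, 209 and 185 CPM, rrm1 108, 104 and 109.8 CPM and hmgb2b 219, 172 and 199 CPM. The list summed to 2093, 1929 and 1877 CPM. The mitotic genes top2a and cenpe were lowest in replicate 4, at 112, 106 and 65.5 CPM and 90.6, 92.3 and 50.9 CPM, while pcna was highest there. Cytosolic ribosomal protein genes were detected for 83 of 84 members and took 56901, 46034 and 60688 CPM, led by rps2 at 2421, 2016 and 2145 CPM and rplp0 at 1949, 1517 and 1441 CPM. The 13 protein genes of the mitochondrial genome, led by mt-co1 at 7579, 7411 and 6089 CPM, took 23762, 22346 and 24772 CPM. Of 35 genes of glycolysis and hypoxia, 29 were detected, led by gapdhs at 340.4, 274 and 300.3 CPM and ldhba at 293, 252 and 319 CPM. gapdh, its paralog, was at 0.0931, 0.0895 and 0 CPM. hif1ab, the oxygen-sensing regulator gene, had 307, 307 and 162 CPM.

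Immediate early and heat shock genes were read in all pools, 40 of 44 being detected. hspa5, a chaperone gene of the secretory pathway, had 1229.7, 803 and 541 CPM, and serpinh1b, the collagen chaperone gene, had 917, 988 and 1181 CPM. Stress-inducible hsp70 genes were low, with hsp70.3 at 6.42, 3.76 and 2.74 CPM and hsp70l at 8.65, 3.09 and 2.70 CPM. klf2a, a flow-responsive regulator gene known from endothelium, had 1181, 576 and 129.9 CPM. The whole vessel list summed to 241, 239 and 206 CPM, and which cells the klf2a reads came from was not tested. junba and junbb, which encode AP-1 subunits, had 299, 739.9 and 487 CPM and 255, 716 and 349 CPM. fosab, another subunit gene, had 81.2, 680.4 and 351 CPM. The AP-1 genes peaked in replicate 3 and klf2a in replicate 2. Among the 35 list members with a mean of 10 CPM or more, 23 differed between pools by 2 times or more, against 9.76% of all such names. The list was chosen with earlier results of these data known, so this contrast may come from that choice.

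Most genes differed between the pools by less than 2 times. Over names with a mean of 10 CPM or more, the median coefficient of variation between the 3 pools was 19.4%, and without replicate 4 it was 10.8%. Its median was 25.7% for names of 1 to 10 CPM, 19.7% for 10 to 100 CPM, 18.0% for 100 to 1000 CPM and 16.8% above. The common biological coefficient of variation from edgeR was 0.240, and 0.199 without replicate 4. After the median difference was taken out, 216 of 10103 names (2.14%) lay more than 1 log2 unit apart between replicates 2 and 3, 628 (6.22%) between replicates 2 and 4, and 269 (2.66%) between replicates 3 and 4. Of the names, 986 (9.76%) had a ratio of highest to lowest library of at least 2, 43 of at least 5 and 13 of at least 10. For 351 of the 986 (35.6%) replicate 4 was highest and replicate 2 lowest, and for 224 (22.7%) the order was reversed. Replicate 3 was highest for 199 (20.2%) with replicate 2 lowest and for 167 (16.9%) with replicate 4 lowest. It was lowest for 26 (2.64%) with replicate 4 highest and for 19 (1.93%) with replicate 2 highest.

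The steadiest genes with a mean of 100 CPM or more, ranked with column totals, included genes that all cells use. The ranking was not repeated under TMM scaling, which moved the pools against each other by up to 1.18 times. That is more than these genes differed, so which genes are steadiest depends on the scaling. dnaja2, a chaperone partner gene, had 238, 236 and 238 CPM. txnrd3 (thioredoxin reductase) had 159, 159 and 156 CPM, tia1 (an RNA-binding protein gene) 163, 164 and 160.3 CPM, csnk2b (a casein kinase subunit gene) 179, 182 and 184 CPM and eif3ba (a translation initiation gene) 406, 397 and 407 CPM. The other 5 of the first 10 were plcd1b, sel1l, pdha1a, khdrbs1a and htra1b, at 107 to 592 CPM in the 3 pools. htra1b, a secreted protease gene, was at 363, 366 and 354 CPM.

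The gene that differed most between pools was fkbp5, which encodes a co-chaperone of the glucocorticoid receptor, at 392, 27.6 and 13.7 CPM. klf9, a regulator gene that also responds to glucocorticoids, had 34.4, 5.60 and 1.37 CPM. Both were highest in replicate 2 and lowest in replicate 4. plekhf1, an endosome protein gene, took the opposite order with 5.03, 27.6 and 117 CPM. So did SAMD9, an antiviral factor gene in mammals, at 2.61, 17.1 and 38.7 CPM. Also highest in replicate 2 and lowest in replicate 4 were klf4, a barrier regulator gene, at 126, 88.3 and 6.82 CPM and midn (midnolin) at 852, 535 and 63.6 CPM. foxj1a, the regulator of motile cilia, had 19.4, 13.4 and 1.5 CPM. Another group was highest in replicate 3, made of immediate early genes. fosl1a had 37.8, 76.8 and 3.76 CPM, fosb 272, 534 and 52.3 CPM, egr1 45.8, 389 and 116 CPM and nr4a1 60.1, 120.2 and 15.4 CPM. csrnp1b had 111, 179 and 19.2 CPM. dusp5, a phosphatase gene of the MAP kinase path, was highest in replicate 2 at 86.4, 61.5 and 9.34 CPM, and so was peli1a at 81.1, 30.8 and 6.64 CPM.

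**Figure D4:**
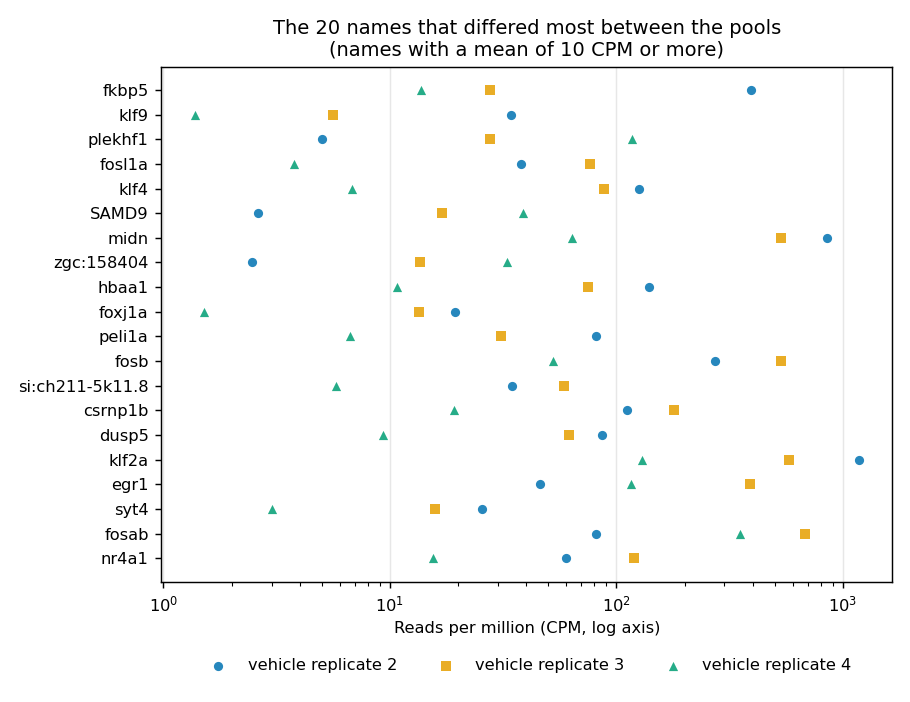
CPM (log axis) in each vehicle library of the 20 names with the largest ratio of highest to lowest library among names with a mean of 10 CPM or more. The replicate 4 marker lies at the left for fkbp5, klf9, fosl1a and klf4 and at the right for plekhf1 and SAMD9, and egr1 and fosab have their lowest value in replicate 2.

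Whole families leaned the same way between pools, and some of these orders depend on the scaling. Of the 37 collagen genes with a mean of 10 CPM or more, 34 were lowest in replicate 4 (35 under TMM scaling), against 35.2% of all such names (42.3% under TMM), and 24 of the 37 had a ratio of 2 or more. All 8 laminin genes at that level were lowest in replicate 4 under each of the 4 scalings, as were both actinodin genes. Among 10 AP-1 genes, 9 were highest in replicate 3 (8 under TMM), against 34% of all such names (22.6% under TMM). All 4 Msx genes above 10 CPM were highest in replicate 4 under each scaling, against 45.3% of all such names (35.8% under TMM). Of 15 Hox genes, 14 were highest in replicate 4 with totals and 12 with TMM. Each count describes 3 pools, and no cause of these orders was tested.

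Cytosolic ribosomal protein genes were lowest in replicate 3 for 79 of 82 members (80 under TMM), against 22.7% of all such names (35.1% under TMM), with no member at a ratio of 2 or more. The library where they were highest depended on the scaling, being replicate 4 for 67 genes with totals and replicate 2 for 58 genes with TMM. Keratin genes likewise were highest as a sum in replicate 4 with totals and in replicate 2 with TMM, and lowest in replicate 3 with both. TMM and size factor scaling raised the share of all names highest in replicate 2 to 41.7% and 39.8%, against 20.6% with totals. The sums of the collagen, actinodin, globin, AP-1 and Msx genes differed between pools by more than the 1.18 times that TMM moved them.

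**Figure D5:**
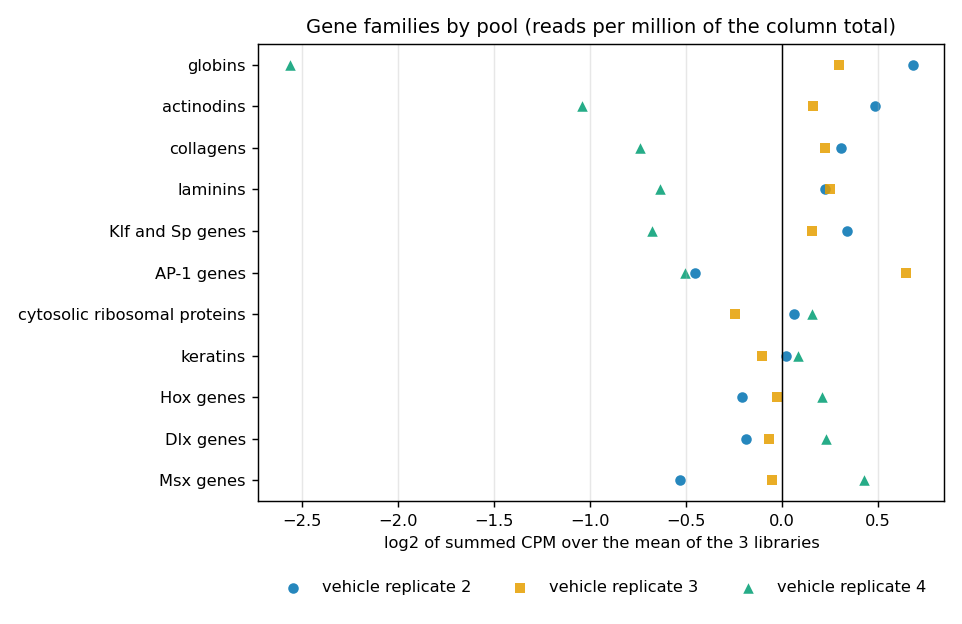
Summed CPM of 11 gene families in each vehicle library, as log2 of the ratio to the mean of the 3 libraries, with totals as the scaling. Globins, actinodins, collagens, laminins, Klf and Sp genes and AP-1 genes have their lowest marker in replicate 4 under each of the 4 scalings and Msx genes their highest there, whereas the highest library of ribosomal protein genes, keratins and laminins changes under TMM.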

How the data were processed

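Per the labels' protocols, Trizol RNA went into a Kapa mRNA library kit. Raw read counts per gene row and a smaller normalized table were deposited. The submitters' processing notes name GRCz11 as build, and list HTSeq 0.6.1, edgeR 4.3.2, TopHat2 2.1.1 and Bowtie2 2.33 without saying what each did. Annotation and strand setting: not given in the sources used here, so reads of a gene and an overlapping or antisense partner, or of near-identical copies, cannot be told apart. The deposited normalized signal values were checked against the counts: 100% were whole reads within 0.001, times 1 constant per library, and this table (11549 rows) served only as an alternative.

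Of 31901 rows with 28531 names, 541 names stand on more than 1 row, and the row of highest mean was kept. Rows not kept held 0.161% to 0.184% of the counts. 19 rows are named by dates. CPM were computed per library from the column total. Replicates are pools, and the spread between them may be partly technical. Of the names, 20107 (70.5%) matched RefSeq (GRCz12tu), which was used for symbols and biotypes only. Gene lists (40, with 778 distinct names matched, 447 of them detected) and 44 families named by symbol pattern were described by counts and sums, with the median log2(CPM + 1) of the listed names beside that of all names (2.42 and 1.88). Members and lists were chosen with earlier results of these data known, and some family patterns were refined after the values were seen. Named genes were the 30 with the most reads, the first 4 of each list and members that define a tissue, the 20 most variable with a mean of at least 10 CPM and the 10 steadiest with a mean of at least 100 CPM. Further members were named after their values were seen, and a few members are not reported here. A planned ranking per length was not run, because no transcript lengths were used here. The biological coefficient of variation came from edgeR 4.0.16 with an intercept only, with size factors from DESeq2 1.42.0 as an alternative (R 4.3.3, Python 3.11.15), and was checked on simulated data. Alternatives were other detection levels, TMM and size factor scaling, summed rows, other filters and leaving out each library.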

Additional observations from a re-analysis of the deposited data

How the results depend on the processing

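With other detection levels, scalings, row handling or libraries, between 11622 and 21442 names were detected (15626 as reported). With each library left out in turn the number was 15728 to 16132, and 448 to 458 listed names were detected. The share of the 50 leading names was 25% to 26.6% with a library left out, and 21.9% with a total without the rRNA row and the numbered mitochondrial rows, an alternative chosen after seeing the data; those rows then also leave the ranking. The median log2 level of the listed names was 2.15 with a pseudocount of 0.1 (2.42 as reported), and 2.35 to 2.52 with a library left out. The median coefficient of variation was 10.8% without replicate 4, 18.2% without replicate 2 and 19.4% without replicate 3 (10.8% to 19.4%), and the biological coefficient 0.199 to 0.277. The detected count of 28 of 84 lists and families moved with a level of 5 CPM, and of 10 with 0.5 CPM. No paired analysis was possible because the 3 libraries form 1 group and no contrast was made. The ranking per length was not run. Values near 0.13 CPM lie at the counting limit.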

Other observations

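A pair of gene lists was added after the values were seen, because fkbp5 and klf9 differed most between the pools. Of 23 genes known to respond to glucocorticoids, 19 were detected, against 54.8% of all names. tsc22d3, a classic target gene, had 181, 185 and 89.6 CPM in replicates 2, 3 and 4, cebpd had 304, 208 and 73.2 CPM and sgk1 90.6, 80.8 and 73.6 CPM. tsc22d3 and cebpd were lowest in replicate 4, but tsc22d3 was highest in replicate 3. cebpd was highest in replicate 2, by less than the margin of fkbp5, at 392, 27.6 and 13.7 CPM. The members with the most reads, glulb and dusp1, had 504, 520 and 639 CPM and 92.8, 431 and 234 CPM. Both were lowest in replicate 2. Of 17 members with a mean of 10 CPM or more, 7 were highest in replicate 2 and 8 lowest in replicate 4. For all such names the shares were 20.6% and 35.2%. Under TMM the counts were 9 and 11, against 41.7% and 42.3%. All of these counts include fkbp5 and klf9, whose values prompted the list. Setting them against all names therefore cannot show a pattern of the list. per1a, a clock gene that also responds to these hormones, had 5.4, 2.42 and 0.974 CPM. nr3c1, the receptor gene, had 88.3, 117 and 94.6 CPM.

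Of 28 matched clock genes, 27 were detected, against 54.8% of all names. nr1d2a, a repressor of the clock loop, had 86.6, 23.5 and 13.6 CPM, while its copy nr1d2b had 88.3, 101 and 119 CPM. tefa had 73.9, 89.3 and 136 CPM, per3 66.8, 93.8 and 60.4 CPM and per2 47.1, 38.3 and 25.6 CPM. The activator genes arntl1a and clockb had 18.7, 20 and 23.3 CPM and 18.5, 19.5 and 15.8 CPM. The copies nr1d2a and nr1d2b thus ran in different orders across the pools.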
